A study of Mus musculus with 28 samples.

Results

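The 10 genes described here encode the machinery with which a cell cuts its own proteins into peptides and displays them on major histocompatibility complex (MHC) class I molecules. They were chosen by name and are B2m, H2-K1, H2-D1, Tap1, Tap2, Tapbp, Psmb8, Psmb9, Psmb10 and Nlrc5. All 10 are among the 30608 genes of the deposited table and among the 14828 genes abundant enough to be tested. They were measured in CTLL2, an interleukin-2-dependent mouse cytotoxic T cell line labelled as strain C57BL/6, with and without vesicles from B16F0, a mouse melanoma line. Exosome-treated cells received B16F0 exosomes at 0.2 mg/ml in PBS together with fresh complete medium and were harvested at 0.5, 2, 4 and 8 h (n = 3 libraries at each time). Untreated cells received fresh medium without exosomes and were harvested at the same 4 times (n = 3 each), and 4 untreated libraries were harvested at 0 h. All 9 groups come from 1 cell line in culture, and replicates of a group are called biological in the series' design text. The question put to these genes was whether tumour vesicles, or the move to fresh medium, changed how much class I machinery a cytotoxic T cell transcribes.

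Class I molecules consist of a polymorphic heavy chain, here H2-K1 or H2-D1, and the invariant light chain beta-2-microglobulin, the product of B2m. Peptides are made in the cytosol by the proteasome, pumped into the endoplasmic reticulum by the Tap1/Tap2 transporter and loaded onto the heavy chain with the help of tapasin, the product of Tapbp. Psmb8, Psmb9 and Psmb10 encode the catalytic subunits LMP7, LMP2 and MECL-1, which take the places of Psmb5, Psmb6 and Psmb7 in the immunoproteasome. Nlrc5 is a transactivator that works with RFX, CREB/ATF and NF-Y factors at a conserved promoter module of class I and related genes. Lymphocytes carry high class I and immunoproteasome levels without stimulation, and interferon-gamma raises the set in most other cells.

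On GRCm38, 7 of the 10 genes lie on chromosome 17, in or near the MHC. Tapbp (ENSMUSG00000024308.14) spans chr17:33915899-33929292 on the plus strand and H2-K1 (ENSMUSG00000061232.15) spans chr17:33996017-34000347 on the minus strand. Psmb9 (ENSMUSG00000096727.2, chr17:34181987-34187764, minus), Tap1 (ENSMUSG00000037321.17, chr17:34187553-34197225, plus), Psmb8 (ENSMUSG00000024338.14, chr17:34197721-34201454, plus) and Tap2 (ENSMUSG00000024339.12, chr17:34203527-34216321, plus) follow one another in a single cluster. H2-D1 (ENSMUSG00000073411.11) lies at the distal side, at chr17:35262730-35267499 on the plus strand. The others are B2m (ENSMUSG00000060802.8, chr2:122147686-122153083, plus), Psmb10 (ENSMUSG00000031897.8, chr8:105935735-105938444, minus) and Nlrc5 (ENSMUSG00000074151.12, chr8:94434356-94527272, plus).

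Promoter sequence was found for 8 of the 10 genes in the RefSeq table (GRCm38.p6), and not for Tap2 and Nlrc5. The stretches below are shown because the genes whose levels are compared in the results share parts of them. They are the bases just before the RefSeq starts of H2-K1 (chr17:34000334-34000468, minus strand), H2-D1 (chr17:35262913-35263093, plus strand) and B2m (chr2:122147541-122147686, plus strand). The last is the stretch of 225 bases between the RefSeq start sites of Tap1 and Psmb9 (chr17:34187331-34187555, plus strand, read towards Tap1). Tap1 and Psmb9 face away from each other. RefSeq starts can lie inside the gene spans given above, which are those of GENCODE, as the starts of H2-D1 and Psmb9 do. Each stretch runs 5′ to 3′, and capitals mark letters that match a searched motif on either strand. The motifs were GGGGATTCC or GGANTTNCC (forms of the NF-kB motif), TGACG (the core bound by CREB/ATF) and ATTGG (complement CCAAT, bound by NF-Y). The last motif was GAAANNGAA, a single form of the interferon response core.
H2-K1: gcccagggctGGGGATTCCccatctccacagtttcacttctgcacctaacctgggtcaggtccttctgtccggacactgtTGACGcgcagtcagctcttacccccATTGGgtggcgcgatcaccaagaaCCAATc
H2-D1: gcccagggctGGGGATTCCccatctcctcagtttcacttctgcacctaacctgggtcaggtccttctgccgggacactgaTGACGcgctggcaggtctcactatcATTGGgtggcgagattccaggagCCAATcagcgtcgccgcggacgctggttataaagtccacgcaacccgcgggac
B2m: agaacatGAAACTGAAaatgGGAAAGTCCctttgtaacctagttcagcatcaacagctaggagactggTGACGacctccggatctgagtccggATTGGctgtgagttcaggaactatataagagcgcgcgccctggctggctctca
Tap1-Psmb9: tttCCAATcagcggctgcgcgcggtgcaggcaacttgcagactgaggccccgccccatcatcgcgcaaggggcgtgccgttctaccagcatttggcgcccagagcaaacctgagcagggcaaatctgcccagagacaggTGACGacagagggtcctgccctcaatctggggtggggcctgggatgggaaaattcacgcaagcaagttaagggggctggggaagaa

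In an alignment that allows gaps, the heavy chain stretches had 122 identical bases, 13 mismatches and 46 gap bases over 181 columns. Not all gaps lie at the end of H2-K1, so the stretches match less often when set side by side without gaps. Both strands were searched in 32851 promoter windows of 300 bases, 250 before and 50 after the start, and in the printed stretches no marked motif overlaps another. GGGGATTCC occurred in 0.250% of all windows and in 2 of the 8 matched genes, H2-K1 and H2-D1. GGANTTNCC occurred in 3.95% of windows and in 1 of the 8, B2m, as did GAAANNGAA, which was in 8.56% of windows. Other forms and spacings of the interferon response core were not searched, so its absence from the other genes was not tested. TGACG was in 20.8% and ATTGG in 37.4% of windows, and both together were in 7.73%. Of the 8 genes, 5 held both, namely B2m, H2-K1, H2-D1, Tap1 and Psmb9, and Tapbp held ATTGG alone of the pair. The windows of Tap1 and Psmb9 both cover the printed stretch between them, so its matches are counted for both genes. In H2-K1, H2-D1 and B2m, TGACG and ATTGG began 25 bases apart on the same strand, an arrangement looked for after the sequences had been read, which was present in 0.0944% of windows (31). These are matches of letters and not measured binding.

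Reads counted in genes, recovered from the deposited values, ran from 6072984 to 24085812 per library. Values are read counts divided by the authors' size factor of each library, called normalized counts below. The T cell character of the cells was visible in all 28 libraries, with Gzmb, the granule protease granzyme B, at 30625 to 54827 and Cd3e, a T cell receptor signalling chain, at 2437 to 4047, whereas Cd8a was at 46.8 to 162. The sample descriptions name Set1 for 1 library of each group (9 in all) and Set2 for the other 19. These sets are called batch 1 and batch 2 here, and all tests carry a batch term. Genes were tested with limma, a linear model fitted to all genes at once, and a gene is called where its p adjusted by Benjamini-Hochberg over the 14828 genes is below 0.05. Skeletal muscle transcripts were present in 8 libraries, in which 6 of the 8 listed muscle markers (Acta1, Myh4, Myh1, Tnnt3, Tnni2, Tnnc2) summed to 305 to 1758 normalized counts, against at most 11.2 in the other 20; the remaining markers, Ckm and Mylpf, were detected in all 28. These libraries were exosome 0.5 h replicates 1 and 3, exosome 2 h replicate 2, exosome 4 h replicates 1 and 2, untreated 2 h replicate 2 and untreated 8 h replicates 1 and 2. Exosome 8 h and untreated 0, 0.5 and 4 h had none. Member results that rest on the 8 libraries are given with and without them. In such bulk libraries, fewer cells of a type and less RNA per cell cannot be told apart.

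CTLL2 cells transcribed the whole class I pathway at high levels in every library, and no member was at 0 anywhere. Per kilobase of annotated exon, B2m had a median of 26733 normalized counts over the 28 libraries (22694 to 40888), a level that only 5 of the tested genes exceeded. H2-D1 had a median of 9669 (9011 to 13294) and H2-K1 of 9380 (8589 to 14857), with 35 and 38 tested genes above them. B2m was thus above both heavy chains in every library, and the heavy chains overlapped each other. The longest annotated transcript is shorter than all exons for H2-K1 (1874 against 2938 bases) and H2-D1 (2102 against 2579). Which heavy chain has the higher median therefore depends on the length used.

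The remaining members lay lower, and no library of theirs reached the heavy chains. Psmb8 had a median of 1686 normalized counts per kilobase (1402 to 2496), Tapbp of 1472 (1306 to 1735) and Tap2 of 1181 (865 to 1353). Psmb10 had a median of 879 (617 to 1416), Nlrc5 of 760.4 (589 to 989), Tap1 of 656 (563 to 833) and Psmb9 of 512 (428 to 883). Neighbours in this order overlapped in every case from Psmb8 down, so the order is that of medians only. It too depends on the length used. Per kilobase, the regulator Nlrc5 overlapped the transporter subunit Tap1 over most of its range. The spread between libraries, as a coefficient of variation, ran from 7.90% for Tapbp to 19.4% for Psmb9, beside a median of 11.1% over the 4030 tested genes averaging at least 1000 normalized counts. Psmb10 varied by 19.2%, H2-K1 by 15.4%, B2m by 15.3% and Psmb8 by 15.2%.

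**Figure D1:**
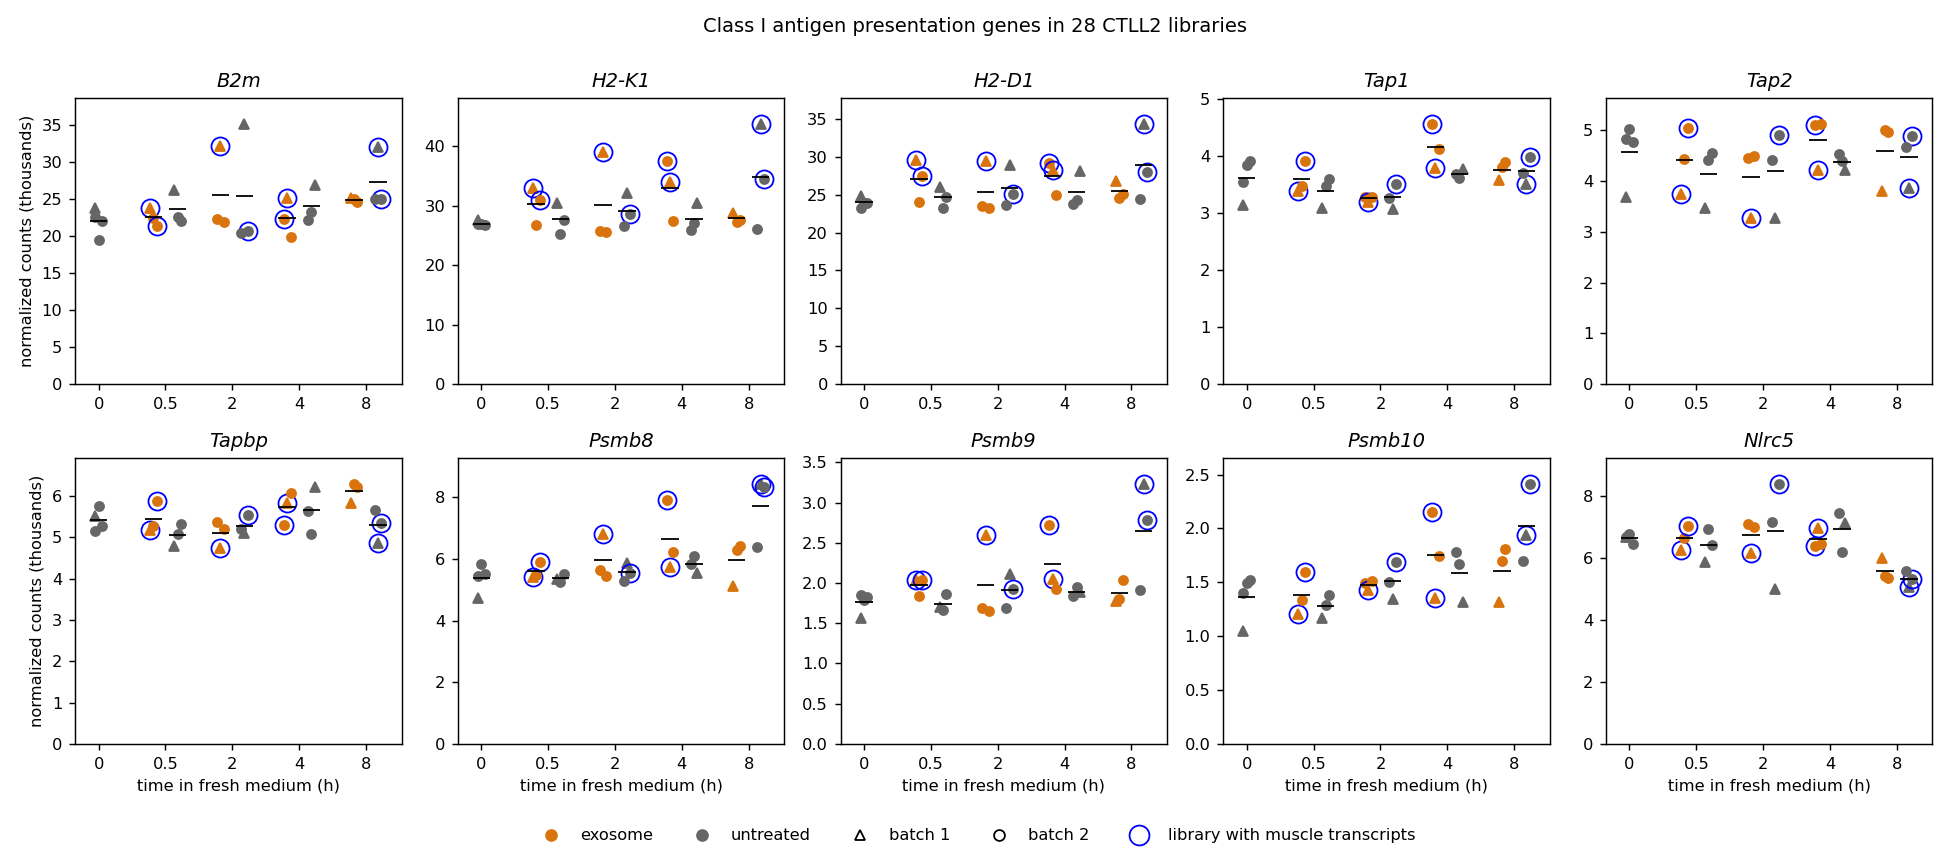
Normalized counts of each of the 10 genes in each of the 28 libraries (vertical axes, linear, 1 panel per gene) by group and time (horizontal axes); each point is 1 library, drawn by treatment, batch and presence of muscle transcripts as the legend gives. Within the 8 h groups the untreated libraries with muscle transcripts, replicates 1 and 2, hold the highest Psmb9 values, 3233 and 2779, against 1918 in replicate 3.

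Exosomes left no member past the test at any time. In the limma fit over all genes, 0 of 10 members were called at 0.5 h (0.243% of all tested genes were), at 2 h (0.189%), at 4 h (0.155%) and at 8 h (0.452%), and 0 of 10 in the mean of the 4 effects (0.459%). At an unadjusted p below 0.05 there were 0 members at 0.5 h, 0 at 2 h, 1 at 4 h, 5 at 8 h and 0 in the mean. The edgeR quasi-likelihood test called 0 members in each of these 5 comparisons. DESeq2 called 0 in each except at 8 h, where it called 3 members and 6.04% of all genes. Averaged over the 4 times, exosome effects lay between -0.07 ± 0.05 for B2m and 0.07 ± 0.04 for Tapbp (log2 fold change ± SE), and the lowest adjusted p of limma was 0.973.

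The interval of this mean effect shows what size of change the data allow. For H2-K1 the 95% interval of the log2 fold change ran from -0.10 to 0.15, for Psmb8 from -0.13 to 0.11, and for Nlrc5 from -0.10 to 0.13. The widest was that of Psmb9, from -0.17 to 0.15, which is 0.890 to 1.11 times the untreated level. These intervals do not bound the effect at a single time. For Psmb9 the interval ran from -0.09 to 0.54 at 4 h and from -0.78 to -0.15 at 8 h, neither effect being called. No member's mean effect passed the test of a difference between the batches (0 of 10 called by limma, 0 at an unadjusted p below 0.05 and 0 by edgeR and DESeq2, with 0.0337% of all genes called).

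**Figure D2:**
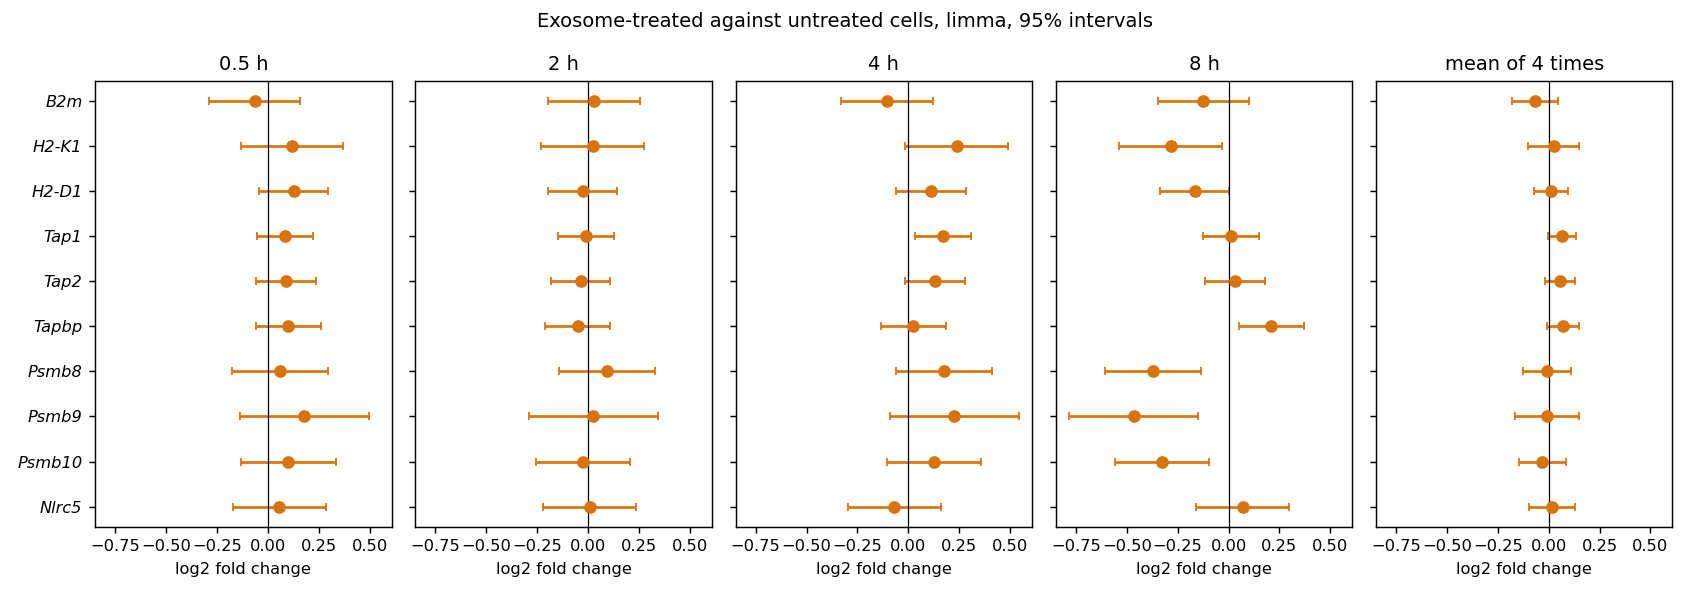
Log2 fold change of exosome-treated over untreated cells for the 10 genes at 0.5, 2, 4 and 8 h and as their mean, with 95% intervals from limma. At 8 h the points of Psmb8, Psmb9 and Psmb10 lie lowest, at -0.37, -0.47 and -0.33, and none has an adjusted p under 0.05.

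At 0.5 and 2 h the treated and untreated libraries overlapped for all 10 members, while 6.42% of all tested genes at 0.5 h and 3.53% at 2 h had groups that did not overlap. At 4 h, Tap1, a subunit of the peptide transporter, had 4561, 3793 and 4133 normalized counts in exosome-treated cells, against 3610.0, 3774 and 3684 in untreated cells. All 3 treated libraries were above all 3 untreated ones, as happened in 1 direction or the other for 5.64% of genes, and the log2 fold change was 0.17 ± 0.07 with an adjusted p of 0.92 by limma. The highest and lowest treated values of Tap1 came from the libraries with muscle transcripts, replicates 1 and 2.

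At 8 h the 3 immunoproteasome subunits had lower means in exosome-treated than in untreated cells, without passing the test, and the highest untreated values were those of the libraries with muscle transcripts. Psmb8 had 5130.5, 6304 and 6423 normalized counts in exosome-treated cells, against 8440.0, 8328 and 6383 in untreated cells. Its untreated replicates 1 and 2 stood above every treated library and replicate 3 lay among them, giving a log2 fold change of -0.37 ± 0.11 with an adjusted p of 0.0804 by limma. Psmb9 had 1776, 1807 and 2039 in exosome-treated cells, against 3233, 2779 and 1918 in untreated cells. The same untreated replicates stood out, and the log2 fold change was -0.47 ± 0.15 with an adjusted p of 0.0866 by limma. Psmb10 had 1313, 1698 and 1805 in exosome-treated cells, against 1943, 2414 and 1698 in untreated cells, with a log2 fold change of -0.33 ± 0.11 and an adjusted p of 0.0907 by limma. These were the 3 members that DESeq2 called, at -0.38 (adjusted p = 0.0392) for Psmb8, -0.49 (0.0423) for Psmb9 and -0.34 (0.0475) for Psmb10.

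The heavy chains showed the same arrangement at 8 h. H2-K1 had 28746, 27272 and 27649 normalized counts in exosome-treated cells, against 43649, 34396 and 26096 in untreated cells. H2-D1 had 26822, 24521 and 25146 in exosome-treated cells, against 34286, 27979 and 24396 in untreated cells. In both genes untreated replicates 1 and 2 were above all treated libraries and replicate 3 was below them, with log2 fold changes of -0.28 ± 0.12 for H2-K1 (adjusted p = 0.14 by limma) and -0.17 ± 0.08 for H2-D1 (adjusted p = 0.196). B2m, whose product pairs with both, had 25162, 25056 and 24661 in exosome-treated cells, against 32016, 25015 and 25095 in untreated cells, a log2 fold change of -0.12 ± 0.11 (adjusted p = 0.48).

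Tapbp was the member whose 8 h groups did not overlap, as was the case for 13.2% of all genes. It had 5837, 6296 and 6228 normalized counts in exosome-treated cells, against 4874, 5355 and 5667 in untreated cells. Its lowest untreated libraries were again replicates 1 and 2, and the log2 fold change was 0.21 ± 0.08 with an adjusted p of 0.10 by limma. Tap1 (0.01), Tap2 (0.03) and Nlrc5 (0.07) had log2 fold changes near 0 at 8 h, with adjusted p-values of 0.936, 0.802 and 0.72 by limma.

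The 8 h values turned on which untreated libraries were used. Without untreated 8 h replicate 3, the library without muscle transcripts, limma called 6 members and 26.3% of all genes. These were Psmb9 (-0.67, adjusted p = 0.00341), Psmb8 (-0.51, 0.00332), Psmb10 (-0.50, 0.00261), H2-K1 (-0.44, 0.00985) and H2-D1 (-0.25, 0.0303), all lower in exosome-treated cells, and Tapbp (0.25, 0.0308), higher. Without the 8 libraries that held muscle transcripts, untreated 8 h keeps 1 library, which is then assumed to vary like the other groups. On that footing the log2 fold changes of Psmb8, Psmb9 and Psmb10 at 8 h were -0.07, -0.02 and 0.02, those of H2-K1 and H2-D1 were 0.05 and 0.01, and the lowest adjusted p of a member was 0.997 by limma. With a term for the muscle transcript sum in the fit they were -0.24, -0.25 and -0.17 for the immunoproteasome subunits, and the lowest adjusted p of a member was 0.416.

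Within batches, the same direction was found for these members at 8 h, at different sizes. In batch 2, with 2 libraries in each group, the log2 fold changes were -0.20 for Psmb8, -0.27 for Psmb9 and -0.21 for Psmb10, with adjusted p-values of 0.601, 0.602 and 0.608 by limma. In batch 1, with 1 library in each group and no replicate, the log2 differences were -0.72, -0.86 and -0.57. The untreated batch 1 library at 8 h was one with muscle transcripts, as was 1 of the 2 of batch 2, replicate 2. Whether the exosome effect depended on time was asked by limma's F test, which called 0 of 10 members and 0.0% of all genes, with 4 members at an unadjusted p below 0.05 (H2-K1, Psmb8, Psmb9, Psmb10), and neither edgeR nor DESeq2 called any. Without untreated 8 h replicate 3 that test called 4 members and 9.09% of all genes.

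Between 0 and 8 h in fresh medium, most members differed in untreated cells, and the highest values were again those of libraries with muscle transcripts. Untreated cells at 8 h, against untreated cells at 0 h, had 7 of 10 members called by limma, where 31.7% of all genes were called (15.9% higher, 15.8% lower). The 3 immunoproteasome subunits, B2m and both heavy chains rose and Nlrc5 fell, and Tap1, Tap2 and Tapbp were not called. The median log2 fold change was 0.26 over the members and -0.01 over all tested genes. The untreated 8 h libraries are also those of the exosome comparison at 8 h, so a high value among them enters both with opposite sign.

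Over all 28 libraries Psmb10 had the largest change, though not without those with muscle transcripts, where it was at 0.24 beside 0.26 for B2m and -0.27 for Nlrc5. It had 1943, 2414 and 1698 normalized counts in untreated cells at 8 h, against 1051, 1495, 1517 and 1403 at 0 h, and its 8 h libraries were all above those of 0 h. Its log2 fold change was 0.59 ± 0.11 (adjusted p = 0.000992 by limma). Psmb8 had 8440.0, 8328 and 6383 at 8 h, against 4739, 5826, 5500.5 and 5457 at 0 h, a log2 fold change of 0.52 ± 0.11 (adjusted p = 0.00221). Psmb9 had 3233, 2779 and 1918 at 8 h, against 1568, 1784, 1832 and 1853 at 0 h, a log2 fold change of 0.55 ± 0.14 (adjusted p = 0.00746). For each of the 3 subunits every 8 h library exceeded every 0 h library, with replicate 3, which held no muscle transcripts, nearest to the 0 h range.

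B2m had 32016, 25015 and 25095 normalized counts in untreated cells at 8 h, against 23825, 19517, 22063 and 22640.2 at 0 h. The groups did not overlap, and the log2 fold change was 0.28 ± 0.10 (adjusted p = 0.0368 by limma). H2-K1 had 43649, 34396 and 26096 at 8 h, against 27495, 26817, 26678 and 26894 at 0 h, and H2-D1 had 34286, 27979 and 24396 at 8 h, against 24877, 23903, 23906 and 23238 at 0 h. In both heavy chains replicates 1 and 2 were above all 0 h libraries and replicate 3 was not, with log2 fold changes of 0.31 ± 0.11 (adjusted p = 0.0401) and 0.24 ± 0.08 (adjusted p = 0.023) by limma. Nlrc5 had 5076, 5343 and 5582 at 8 h, against 6687, 6792, 6468 and 6688 at 0 h. All its 8 h libraries were below all of 0 h, and the log2 fold change was -0.31 ± 0.10 (adjusted p = 0.0253). Of all tested genes, 23.4% had 8 h and 0 h libraries that did not overlap, and 5 members were among them: B2m, Psmb8, Psmb9 and Psmb10 above and Nlrc5 below.

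**Figure D3:**
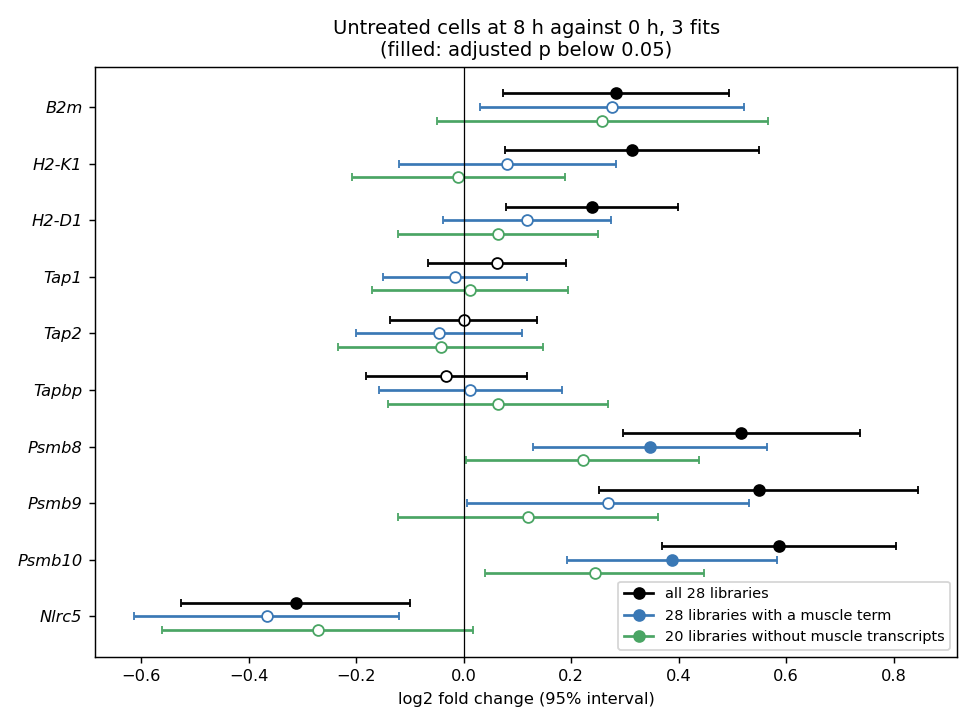
Log2 fold change of untreated cells at 8 h over untreated cells at 0 h for the 10 genes, with 95% intervals, from limma over all 28 libraries, without the 8 libraries with muscle transcripts and with a muscle term. Over all libraries the 3 immunoproteasome subunits lie between 0.52 and 0.59; without the muscle libraries they lie between 0.12 and 0.24.

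These calls changed with the libraries used. Without the 8 with muscle transcripts, untreated 8 h keeps 1 library, replicate 3, so only effect sizes are given. The log2 fold changes were then 0.24 for Psmb10, 0.22 for Psmb8, 0.12 for Psmb9, 0.26 for B2m, -0.27 for Nlrc5 and -0.01 for H2-K1. With a muscle term limma called 2 of 10 (9.42% of all genes), Psmb8 at 0.35 (adjusted p = 0.0409) and Psmb10 at 0.39 (adjusted p = 0.017). Leaving out single libraries, 2 members stayed called without untreated 8 h replicate 1 (15.9% of all genes), 2 without replicate 2 (14.3%) and 3 without untreated 0 h replicate 1 (24.1%). Psmb8 and Psmb10 were called in 7 of these 7 single omissions, Psmb9 in 5, H2-D1 and Nlrc5 in 4, B2m in 3 and H2-K1 in 1. In batch 2 alone 4 members were called (27.7% of all genes), with B2m at 0.23, Psmb8 at 0.38, Psmb10 at 0.46 and Nlrc5 at -0.28. In batch 1, with 1 library in each group, the log2 differences of these were 0.43, 0.83, 0.89 and -0.40.

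The earlier times showed little of this. Limma called 0 of 10 members in untreated cells at 0.5 h (0.189% of all genes), at 2 h (1.83%) and at 4 h (1.19%) against 0 h, and so did edgeR and DESeq2. There were 0, 0 and 1 members at an unadjusted p below 0.05 at those times, the one being Psmb10 at 4 h, with 0.25 ± 0.11 (adjusted p = 0.363). Over the 4 untreated times together, limma's F test called 3 members, Psmb10 (adjusted p = 0.00178), Psmb8 (0.00808) and Psmb9 (0.0348), beside 21.6% of all genes. That test called 1 member without untreated 8 h replicate 1 (10.4% of all genes) and 1 without replicate 2 (7.39%), and 5 without untreated 8 h replicate 3 (31.4%) and 5 without untreated 2 h replicate 1 (26.7%).

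A comparison that does not use the 0 h libraries sets 8 h against 0.5 h over exosome-treated and untreated cells together. Limma called 3 members and 26.3% of all genes (11.5% higher, 14.8% lower). Psmb10 rose by 0.43 ± 0.08 (log2 fold change ± SE, adjusted p = 0.000563) and Psmb8 by 0.30 ± 0.08 (adjusted p = 0.0102), and Nlrc5 fell by 0.26 (± 0.08, adjusted p = 0.0192). B2m (0.17, adjusted p = 0.0931), Psmb9 (0.25, 0.0917) and Tap1 (0.11, 0.0916) were not called.

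Psmb10 kept its call in 12 of 12 omissions of 1 library and in 13 of 13 other alternatives, and Psmb8 in 12 of 12 and 12 of 13. Nlrc5 lost it without untreated 0.5 h replicate 2, without exosome 8 h replicate 2 (adjusted p = 0.0558) and without exosome 8 h replicate 3 (adjusted p = 0.0596). Without the 8 libraries with muscle transcripts, limma called Psmb10 alone, at 0.33 (adjusted p = 0.00797), beside 9.87% of all genes. There Psmb8 was at 0.18 (adjusted p = 0.126) and Nlrc5 at -0.22 (adjusted p = 0.153). With a muscle term, limma called Psmb8, Psmb9, Psmb10 and Nlrc5, beside 29.8% of all genes.

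In the libraries with muscle transcripts, H2-K1, H2-D1 and Psmb9 were above the median of the other libraries of their batch in 4 of 4 libraries of each batch. Psmb8 was so in 3 of 4 of batch 2 and 4 of 4 of batch 1, and Psmb10 in 4 of 4 and 3 of 4. H2-K1 ran from 28631 to 37519 normalized counts in the 4 such libraries of batch 2, against 25233 to 27649 in the other 15, and from 32930.0 to 43649 in the 4 of batch 1, against 27495 to 32059 in the other 5. All 8 were thus above every other library of their batch. H2-D1 exceeded all others of its batch in 3 of 4 libraries of each batch, and Psmb9 in 3 of 4 of batch 2 and 2 of 4 of batch 1. Psmb8 did so in 2 and 2 and Psmb10 in 2 and 3, whereas B2m, Tap2 and Tapbp did so in none. How often all tested genes did so was not counted, so these counts have no background beside them.

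As a term in limma's fit, the muscle transcript sum was called for 3 members and 7.61% of all genes. Per doubling of that sum, the log2 value was higher by 0.04 in H2-K1 (adjusted p = 0.01) and Psmb9 (adjusted p = 0.0160) and by 0.03 in Psmb10 (adjusted p = 0.0195). The libraries with muscle transcripts also had more fibroblast and matrix transcripts, whose 8 markers summed to 132 to 196.5 normalized counts, against 70.2 to 132 in the others. T cell marker sums, to which Gzmb, Prf1 and Il2ra contribute most, overlapped, at 96816 to 150825 with muscle transcripts and 90616 to 154955 without. Single T cell markers differed in this. Cd3e was above the median of the other libraries of its batch in 0 of 4 libraries of each batch. Trbc1 was so in 4 of 4 of batch 2 and 3 of 4 of batch 1. Cd3g was so in 2 of 4 of each batch, and Prf1 in 2 of 4 of batch 2 and 1 of 4 of batch 1. How often all tested genes were so was not counted. What the presence of muscle transcripts did to the members' values was not tested beyond the fits above.

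**Figure D4:**
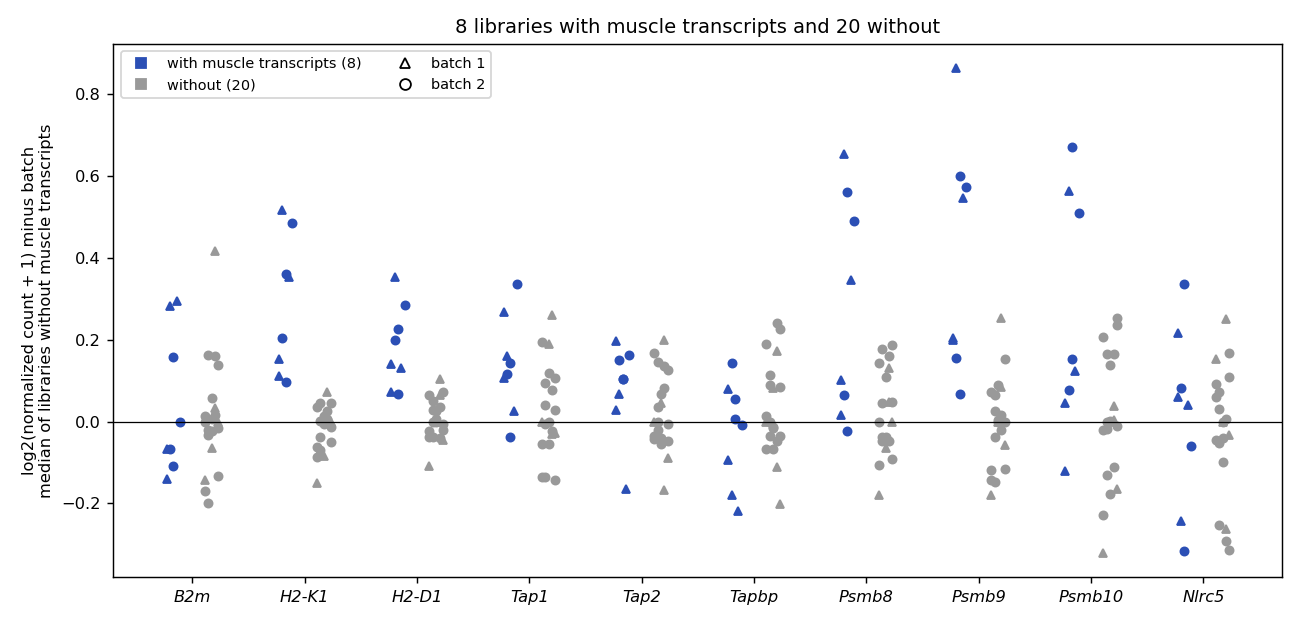
Log2(normalized count + 1) of the 10 genes in libraries with and without skeletal muscle transcripts, minus the median of those without in the same batch. Each point is 1 library, and its marker gives the batch. In H2-K1 the libraries with muscle transcripts lie above all others of their batch, and in B2m, Tap2 and Tapbp none does.

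The members fell into subsets that varied together across libraries. Centred within batch over the 28 libraries, H2-K1 was most alike to Psmb9 (Pearson r = 0.957), Psmb8 to Psmb9 (0.946), H2-D1 to H2-K1 (0.934) and Psmb10 to Psmb8 (0.926). The transporter subunits formed another pair, Tap1 with Tap2 (0.814), and Tapbp was nearest to Tap2 (0.716). B2m was less tied to the others, its highest r being 0.581 with Psmb8. Nlrc5, the transactivator of the set, ran against part of it, with an r of -0.695 with B2m, -0.578 with Psmb8, -0.462 with Psmb10 and -0.459 with Psmb9, and its highest r was 0.102 with Tap2. These are descriptions of libraries that share batches, times and the muscle transcripts above, and H2-K1 and H2-D1 could also share reads.

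Likeness to the mean profile of the 10 members was ranked over protein-coding genes outside the gene lists and above an abundance limit. Predicted genes and H2 genes were left out. In that ranking Mtch1 (r = 0.925), Phlda3 (0.923), Samd1 (0.920), Rfc2 (0.912), Cmtm7 (0.910) and Emc10 (0.905) were most alike to the profile. The members' own r to that profile ran from -0.31 for Nlrc5 to 0.896 for H2-D1.

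The ratios of the immunoproteasome subunits to the constitutive ones they replace differed between pairs more than between groups of libraries. Per base of exon, Psmb8 averaged 2.00 times Psmb5 over the 28 libraries, a log2 ratio of 1.00 ± 0.10 (SD), and group means ran from 1.93 to 2.08. Psmb9 averaged 0.707 times Psmb6 (log2 ratio -0.50 ± 0.16, groups 0.662 to 0.768), and Psmb10 averaged 1.61 times Psmb7 (log2 ratio 0.69 ± 0.25, groups 1.44 to 1.77). In exosome-treated cells at 8 h the ratios were 2.01, 0.679 and 1.63, against 1.94, 0.679 and 1.61 in untreated cells at 8 h and 2.02, 0.741 and 1.52 at 0 h. The ratios depended on which gene length was used. With the longest annotated transcript in place of all exons, they were 3.55, 0.463 and 1.74.

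**Figure D5:**
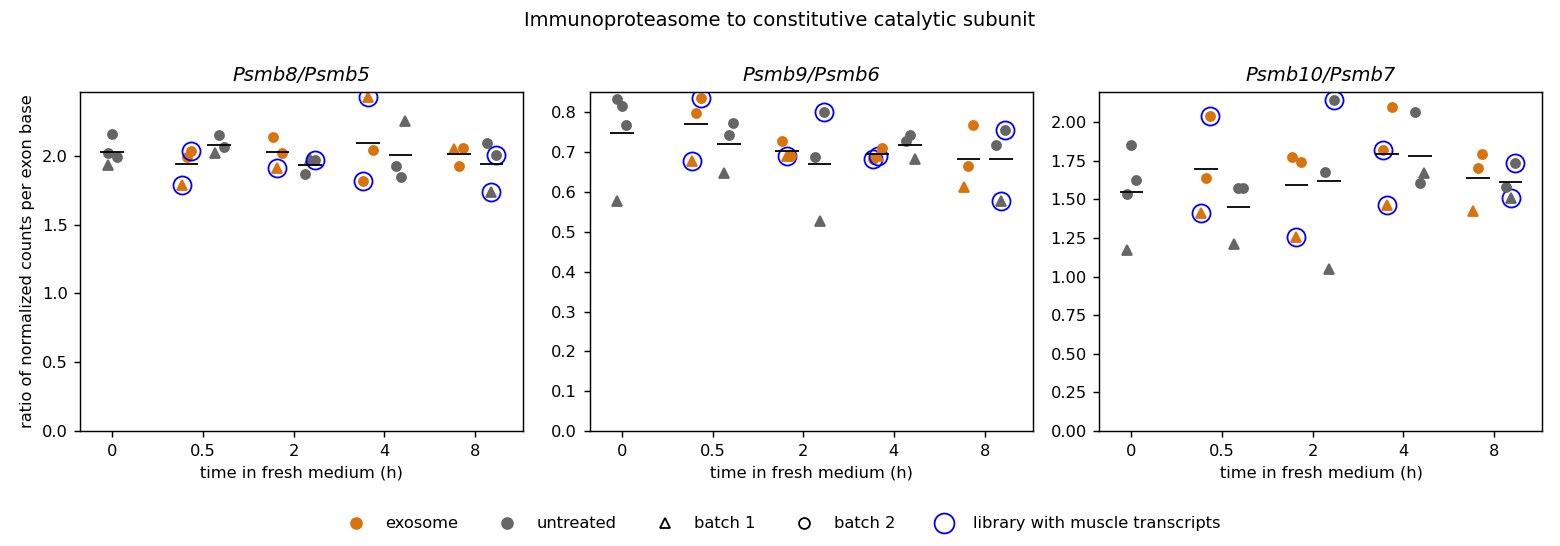
Ratio, per base of exon and on a linear axis, of each immunoproteasome subunit to the constitutive subunit it replaces, in each library by group. Group means of the log2 ratio, not drawn here, are 0.95 to 1.06 for Psmb8/Psmb5 and -0.60 to -0.38 for Psmb9/Psmb6. For Psmb10/Psmb7 they are 0.53 to 0.83, and batch 1 libraries of this ratio lie mostly below those of batch 2.

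The constitutive subunits themselves rose beside their immunoproteasome counterparts. In untreated cells at 8 h against 0 h, limma called 3 of 3 of them, Psmb6 at 0.66, Psmb5 at 0.58 and Psmb7 at 0.48 (log2 fold change), and 10 of 11 other 20S core subunits, led by Psmb1 (0.63), Psma7 (0.53), Psma5 (0.52) and Psma4 (0.50). Of the activators and assembly factors 7 of 10 tested rose, among them the chaperone Psmg3 (0.66) and the interferon-inducible activator subunit Psme2 (0.48). Of the 19S cap subunits 8 of 18 rose, led by Psmd8 (0.44), and none of these 4 lists had a member that fell, where 15.9% of all tested genes were called higher and 15.8% lower. Their median log2 fold changes were 0.58, 0.49, 0.42 and 0.17, beside 0.26 for the 10 members and -0.01 for all tested genes.

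Without the 8 libraries with muscle transcripts, where untreated 8 h keeps 1 library, the 4 medians in that comparison were 0.24, 0.27, 0.20 and 0.19. With the muscle term limma called 0, 3, 1 and 4 genes of the 4 lists, beside 9.42% of all genes. In exosome-treated against untreated cells at 8 h none of the 4 lists had a called member, and their medians were -0.42, -0.31, -0.24 and -0.06, with all 11 of the other 20S subunits below 0.

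In other lists of the class I pathway, fewer genes were called in untreated cells at 8 h against 0 h, and shares of 4 of 13, 6 of 14 and 4 of 19 stand beside 31.7% of all tested genes. Among 13 tested heavy chains outside the members, Fcgrt (0.65), which encodes the neonatal Fc receptor, H2-T23 (0.28), which encodes the non-classical Qa-1, and H2-T22 (0.23) rose by limma, and H2-T24 fell by 0.81. Among 14 genes of peptide loading and trimming, 4 rose, among them the chaperone Hspa5 (0.35) and the peptidase Thop1 (0.34), and 2 fell, the aminopeptidases Lnpep (-0.60) and Npepps (-0.32). Of 19 tested regulators of class I promoters, Nfkb1 (0.13) rose and Stat2 (-0.27), Rfx5 (-0.24) and Jak1 (-0.23) fell. In the same comparison T cell markers also moved, with 6 of 13 higher and 2 lower, among them Trbc1 (0.61) and Cd3d (0.48). Without the 8 libraries with muscle transcripts, where 2.73% of all genes were called, 1 of 13 heavy chains (lower), 0 of 14 loading and trimming genes, 1 of 19 regulators (lower) and 0 of 13 T cell markers were called by limma. Untreated 8 h keeps 1 library in that fit. The first 3 of these lists had no called member in exosome-treated against untreated cells at 8 h over all 28 libraries. Irf1, an interferon-induced regulator, was between 1168 and 1668 normalized counts in every library, and Ifngr2, a chain of the interferon-gamma receptor, was listed at 0 in 16 libraries and at no more than 4.42 in the others.

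Exosome-treated libraries carried melanocyte transcripts throughout, whose 8 markers summed to 59.8 to 175.5 normalized counts, against 7.45 to 20.7 in untreated libraries. Whether exosomes carried class I transcripts of their own was not tested.

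Between the batches, members were called about as often as genes at large. Limma called 6 of 10 between batch 2 and batch 1, where 57.6% of all genes were called (28.5% higher, 29.2% lower in batch 2). Tap2 was higher in batch 2, at 4383 to 5114 normalized counts in its 19 libraries, against 3271 to 4222 in the 9 of batch 1, with no overlap and a log2 fold change of 0.35 (adjusted p = 6.59e-09). Psmb10 (0.30, adjusted p = 6.96e-05) and Tap1 (0.13, adjusted p = 0.00195) were also higher in batch 2 by limma. B2m was lower in batch 2, at 19517 to 25095 against 23825 to 35164 in batch 1, a log2 fold change of -0.30 (adjusted p = 4.53e-05). H2-K1 (-0.24, adjusted p = 0.00175) and H2-D1 (-0.19, adjusted p = 0.000282) were lower with it. Antigen-presenting cell markers also differed by batch. Cd74, the class II invariant chain, was at 5.32 to 18.6 normalized counts in batch 2, against 239 to 337 in batch 1, H2-Aa at 0 to 7.72 against 127 to 227, H2-Ab1 at 0 to 6.82 against 69.6 to 132, and H2-Eb1 at 0 to 5.15 against 83.6 to 127. Of other such markers, Itgax was at 7998 to 9621 in batch 2, against 4940.3 to 7509 in batch 1, and Csf1r, Lyz2, Cd79a and Ms4a1 reached at most 9.96 in any library. Their part in the members' batch differences was not tested. What the batches were, beyond a label, is not described, so culture and library differences cannot be told apart.

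Counting limits bear on some members. Of the 50-base stretches of H2-K1 transcripts 9.63% also occur in another gene, most often H2-Q10, and of H2-D1 12.8%, most often in H2-Q1, whereas the other members share at most 2.87%. Whether the reads keep their strand is not stated, and Tap1 and Psmb9 overlap by 212 bases on opposite strands, so reads there cannot be told apart. Tapbp overlaps Zbtb22 on its own strand (median 516 normalized counts).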

How the data were processed

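The authors' deposited values are read counts divided by a size factor for each library, a normalized signal. Reads were mapped to GRCm38.p2, and STAR 2.4.2, featureCounts 1.5.0, CASAVA 1.8.4, R 3.3.2 and DESeq2 were used, per the submitters' processing notes. Values were whole multiples of 1 step, and 100% gave whole reads within 0.01 read. Genes with at least 10 normalized counts in 3 libraries entered limma (3.58.1, R 4.3.3) on the scale log2(normalized count + 1), which all differences use. Groups and batch were fitted with a trend over 28 libraries, leaving 18 residual degrees of freedom. The recovered reads were also tested by edgeR (4.0.16, quasi-likelihood) and DESeq2 (1.42.0). Lengths and positions came from GENCODE M21. Other alternatives changed pseudocount, filter, scaling, batch term, replicate block or libraries, and those on muscle transcripts were chosen after seeing the data. All 10 members are named, and up to 4 called genes of each list. Members and lists were chosen with earlier results of these data known.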

Additional observations from a re-analysis of the deposited data

How the results depend on the processing

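Of 2920 recomputed values of single members, 2854 kept their direction and side of the threshold (a sign change of a value never called and within 2 standard errors counted as kept), 49 lost a call, 13 gained one and 4 reversed. The reversals came without the 8 libraries with muscle transcripts: H2-K1 at 0.0459, H2-D1 at 0.0117 and Psmb10 at 0.0186 for exosomes at 8 h, and H2-K1 at -0.0102 for untreated 8 h against 0 h. For exosomes at 8 h DESeq2 called 3 members, and leaving out 1 library gave 0 to 6. For untreated 8 h against 0 h, 7 members became 3 with no filter, 3 with no batch term, 4 in batch 2, 0 without the muscle libraries, 2 with a muscle term and 2 to 7 with 1 library left out. For 8 h against 0.5 h, 3 became 1 without the muscle libraries and 2 to 4 with 1 library left out. For the untreated time course, 3 became 5 by DESeq2, 1 with no batch term, 1 without the muscle libraries, 1 with a muscle term and 1 to 5 with 1 library left out. The test of exosome effects between times gave 0 to 4 with 1 library left out. Counts in the other comparisons were the same under every alternative run. With the longest transcript, the log2 ratios were 1.83 for Psmb8/Psmb5 and -1.11 for Psmb9/Psmb6. The cause of these changes was not tested, and without the muscle libraries untreated 8 h keeps 1 library. After group and batch were fitted, same-numbered libraries of the 2 arms correlated from -0.25 to 0.276. Pairs with unlike numbers were not set beside these, so whether equal numbers mark paired cultures was not tested. At 2 h, replicate 1 is from batch 1 in untreated and from batch 2 in exosome-treated cells. With the replicate block 5 members were called for untreated 8 h against 0 h, where H2-K1 was at 0.33 (limma, adjusted p = 0.0613) and H2-D1 at 0.24 (adjusted p = 0.0519). All members had over 1000 normalized counts in every library, so counting error is small beside the spread between libraries, which 3 a group estimate poorly.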

Other observations

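Genes outside the 10 members differed by batch in the same libraries. Of 13 tested class I heavy chains outside the members, 11 were lower in batch 2 by limma, where 29.2% of all tested genes were, among them H2-M10.1 (-1.76), H2-Q1 (-1.40), Fcgrt (-1.27) and H2-T23 (-0.59), on the log2 scale. H2-Q1 was low, at 1.79 to 24.3 normalized counts, where 3 reads make 1.88 to 7.47 depending on the library. It also shares stretches with the abundant H2-D1. Ifngr1, a chain of the interferon-gamma receptor, was at 950.4 to 1167 normalized counts in the 19 libraries of batch 2, against 1612 to 2167 in the 9 of batch 1. Prf1, the pore-forming protein perforin, was at 14211 to 24416 in batch 2, against 33059.5 to 42216 in batch 1.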
